A study of Mus musculus with 13 samples.

Results

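VEGF signaling was examined through 9 genes, taken by symbol from the count tables of every library. They were the receptors Kdr, Flt1 and Flt4, the co-receptors Nrp1 and Nrp2, and the ligands Vegfa, Vegfb, Vegfc and Pgf. All 9 were listed among 24984 genes in tumor endothelial cells (ECs) and among 24421 genes in sprout ECs, and all 9 passed the filter on low counts, which left 13073 and 14557 genes for testing. Expression of these genes was compared with and without Apelin, a secreted peptide that acts on ECs through its receptor Aplnr. Tumor ECs were CD31+ and CD105+ cells sorted from E0771 tumors, a mouse mammary carcinoma line grown in the mammary fat pad of C57BL6/J mice, with 100 cells per library. KO libraries (n = 3) came from Apln-/- mice that carried E0771 cells with the shApln hairpin, and WT libraries (n = 6) from wild-type mice that carried E0771 cells with the control hairpin shRenilla, so host and tumor-cell Apelin were removed together. Sprout ECs were CD31+ cells sorted from embryoid bodies (EBs) of female mouse embryonic stem cells on a C57BL/6x129 background. The EBs were moved to collagen gel on day 8 and given 30 ng/ml VEGFA164 in both groups. STOP libraries (n = 2) carry a gene-trap cassette in sense within Apln, and GO libraries (n = 2) come from sister cells in which retroviral Cre turned the cassette to antisense. By the study's legends the STOP EBs also received DMSO and the GO EBs 1000 nM Apelin Pyr13, so the trap and the added peptide cannot be told apart. The STOP and GO cells derive from a gene-trap line and its Cre-reverted sister, and the labels do not say whether the libraries came from separate mice or cultures, so p-values measure the spread between these libraries, which may be technical.

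VEGF ligands are secreted proteins that bind receptor tyrosine kinases on ECs and drive their division, migration and sprouting. VEGFR2, encoded by Kdr, is the main signaling receptor for VEGF-A. VEGFR1, encoded by Flt1, binds VEGF-A, VEGF-B and PlGF tightly, has a weak kinase and also exists as a soluble decoy. VEGFR3, encoded by Flt4, binds VEGF-C and is best known from lymphatic vessels, although sprouting blood vessels carry it too. Neuropilins are co-receptors for VEGF ligands and for class 3 semaphorins.

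Total counts lay between 4661044 and 14455093 in tumor libraries and between 12327030 and 16804071 in sprout libraries. The lowest count of any member was 28, for Vegfa in KO replicate 3. Levels are given as CPM (counts divided by library size) after TMM scaling, which sets library sizes so that most genes do not differ. Apln itself lay between 2.44 and 12.1 CPM in KO libraries against 416 to 1033 CPM in WT libraries. In sprout ECs Apln did not separate in the labelled direction, with 66.1 and 80.2 CPM in STOP libraries and 58.2 and 65.9 CPM in GO libraries. Gene counts do not show on which side of the trap the reads lie, so STOP and GO are used here as the labels give them. All 15 endothelial markers were detected in every group. Their summed level was 9335 to 15490 CPM in tumor ECs, 623 and 855 CPM in STOP libraries and 2324 and 2329 CPM in GO libraries. Markers of pluripotent cells summed to 5440 and 5596 CPM in STOP libraries and to 2237 and 3555 CPM in GO libraries, so in all but 1 of the 4 sprout libraries they exceeded the endothelial sum.

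To see which members stood highest in each set of sorted libraries, levels were divided by transcript length (CPM per kb). In WT tumor ECs the order ran from Pgf at 269 ± 52.0 (SD, n = 6) through Flt1 at 199 ± 23.3, Kdr at 110 ± 24.0 and Nrp1 at 76.4 ± 25.6 CPM per kb. Below these came Vegfb at 32.8 ± 26.8, Nrp2 at 24.2 ± 13.1, Flt4 at 22.1 ± 15.5 and Vegfc at 16.7 ± 9.07 CPM per kb. Vegfa, which encodes the ligand of both main receptors, was the lowest member at 5.07 ± 4.16 CPM per kb. Of the 8 pairs of neighbours in this order, only Flt1 and Kdr had library ranges that did not overlap. Before division by length the WT mean of Pgf, 381 CPM, lay below those of Flt1 (1242), Kdr (594) and Nrp1 (449). In KO tumor ECs Pgf also led at 393 ± 236 CPM per kb (SD, n = 3) and Vegfa was again last at 3.53 ± 4.42 CPM per kb, but Vegfc stood above Flt4 (49.4 ± 25.4), Vegfb and Nrp2, at 53.7 ± 19.8 CPM per kb. In KO libraries only the lowest neighbours, Nrp2 and Vegfa, did not overlap.

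In sprout ECs both ends of the order were exchanged. Vegfa was the highest member per length, at 97.3 ± 1.79 CPM per kb in STOP libraries (SD, n = 2) and 104 ± 23.5 in GO libraries, and Pgf was the lowest at 4.74 ± 2.36 and 10.5 ± 0.148 CPM per kb. Kdr followed Vegfa in GO libraries at 83.1 ± 11.96 CPM per kb, and its range overlapped that of Vegfa. Vegfc at 47.0 ± 4.78, Flt1 at 45.3 ± 4.64 and Vegfb at 44.9 ± 2.26 CPM per kb overlapped as neighbours in GO libraries. The deposited TPM of these libraries gave the same places to all 9 members, with Vegfa at 162 ± 44.9 TPM and Kdr at 127 ± 28.3 TPM in GO libraries. The sets differ in cells, library protocol and counting, so levels are set side by side across them and no test was made. Sprout libraries also held pluripotent markers, summing to 2237 to 5596 CPM, and which cells carry Vegfa there was not tested.

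**Figure D1:**
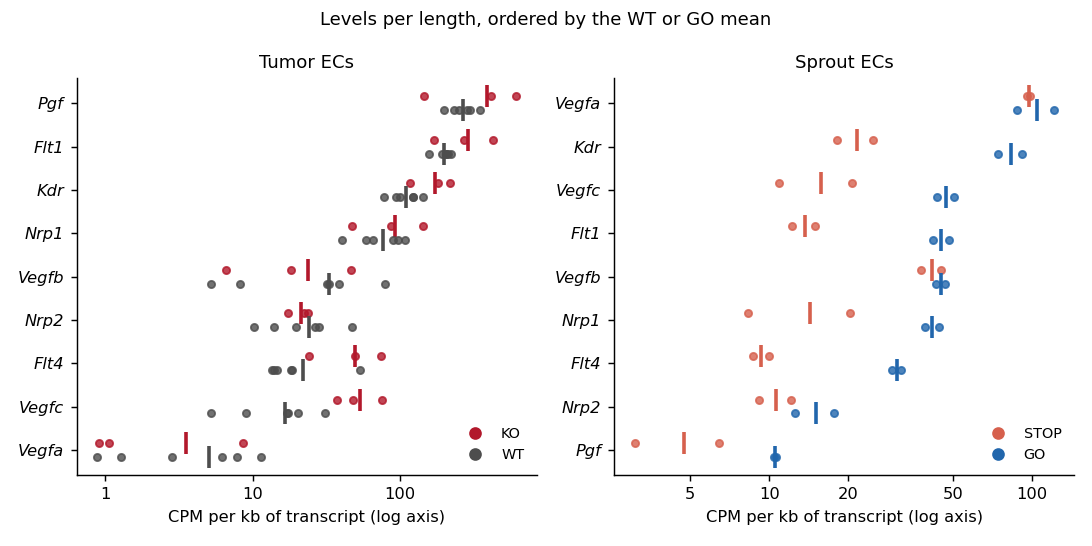
Levels per length (CPM per kb of transcript, log axis) of the 9 members in tumor ECs (KO n = 3, WT n = 6) and sprout ECs (STOP and GO, n = 2 each); dots are libraries and bars are group means. Pgf has the highest mean per length in the tumor libraries and the lowest in the sprout libraries, whereas Vegfa does the reverse. Library ranges of Pgf and Flt1 overlap in both tumor groups, and which cells of the sprout libraries carry Vegfa was not tested.

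Ratios of 2 members within a library do not depend on how libraries are scaled. Counts of Flt1 exceeded those of Kdr in every tumor library, by 1.67 to 2.28 times in KO and by 1.46 to 3.07 times in WT libraries. In sprout libraries the ratio was below 1, at 0.782 and 0.694 in STOP and at 0.612 and 0.649 in GO libraries. Pgf counts were 31.3 to 169 times those of Vegfa in KO and 8.98 to 146 times in WT libraries, but 0.0138 and 0.0295 times in STOP and 0.0387 and 0.0523 times in GO libraries. The tumor and sprout ratios of these pairs did not overlap, and the part of non-endothelial cells in the sprout ratios was not tested. Nrp2 to Nrp1 ranged from 0.178 to 0.393 in KO and from 0.139 to 0.859 in WT libraries, with WT replicate 5 at the top.

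Between KO and WT, none of these 3 ratios differed by more than the libraries varied. The mean log2 ratio of Flt1 to Kdr was 0.91 ± 0.24 (SD) in KO and 1.09 ± 0.44 in WT libraries (difference -0.17, two-sided exact permutation test over 84 splits, p = 0.524, adjusted over the 3 ratios 0.762). For Nrp2 to Nrp1 the difference was -0.24 (exact permutation p = 0.762, adjusted 0.762) and changed sign without KO replicate 3 or without WT replicate 5. Pgf to Vegfa differed by 1.11 (exact permutation p = 0.31, adjusted 0.762), and by 0.49 without KO replicate 3 and 1.71 without KO replicate 1.

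**Figure D2:**
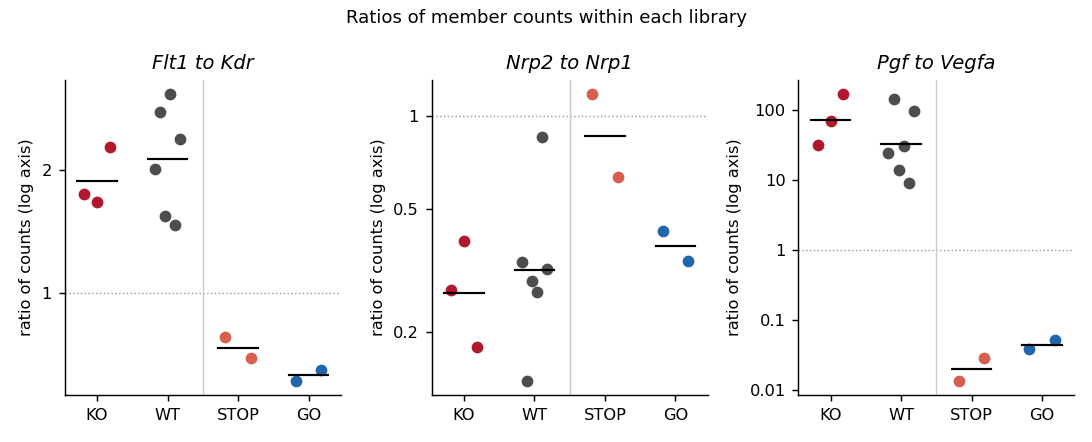
Ratio of counts of Flt1 to Kdr, Nrp2 to Nrp1 and Pgf to Vegfa in each library (log axis, dotted line at 1, bars at the group's geometric mean). Flt1 to Kdr and Pgf to Vegfa lie above 1 in all tumor libraries and below 1 in all sprout libraries.

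Loss of Apelin in tumors was then examined for each receptor. Kdr was measured at 971, 633 and 1176 CPM in KO libraries and at 418 to 775 CPM in WT libraries (median 599), so the groups overlapped. Its log2 fold change was 0.64 ± 0.28 (SE; edgeR quasi-likelihood test, adjusted p = 1.00). Flt1 was at 1698, 1059 and 2684 CPM in KO and at 976 to 1394 CPM in WT libraries (median 1282). KO replicates 1 and 3 stood above all WT libraries for Flt1 and KO replicate 2 did not, and the log2 fold change of 0.55 ± 0.29 did not pass the test (edgeR adjusted p = 1.00). It was 0.15 without KO replicate 3 and 0.82 without KO replicate 2.

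Flt4 was at 286, 433 and 140 CPM in KO libraries. In WT libraries it was at 78.7 to 309 CPM (median 95.1), with replicate 3 alone above 108. The log2 fold change was 1.16 ± 0.44 (edgeR adjusted p = 0.957). Libraries with high Flt4 were those with high lymphatic endothelial markers. The 4 lymphatic markers (Prox1, Lyve1, Pdpn, Reln) summed to 743 CPM in KO replicate 1, 1671 in KO replicate 2 and 2026 in WT replicate 3, against 10.2 to 125 CPM in the other 6 libraries. Prox1, the master regulator of lymphatic identity, was at 28.5, 175 and 66.7 CPM in those 3 libraries and at 0 to 15.1 CPM in the other 6. All 4 lymphatic markers were detected in 8 of 9 libraries, and Prox1 was at 0 counts in WT replicate 6. With KO replicate 2 and WT replicate 3 left out, an alternative chosen after seeing the data, the log2 fold change of Flt4 was 1.22 ± 0.34 (edgeR adjusted p = 0.979). It was 0.73 without KO replicate 2 alone and 1.65 without WT replicate 3 alone. KO replicate 1, which also has high lymphatic markers, was kept in each of these fits, and the part of lymphatic ECs in the Flt4 level was not tested. In bulk libraries more cells of a type and more RNA per cell cannot be told apart.

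**Figure D3:**
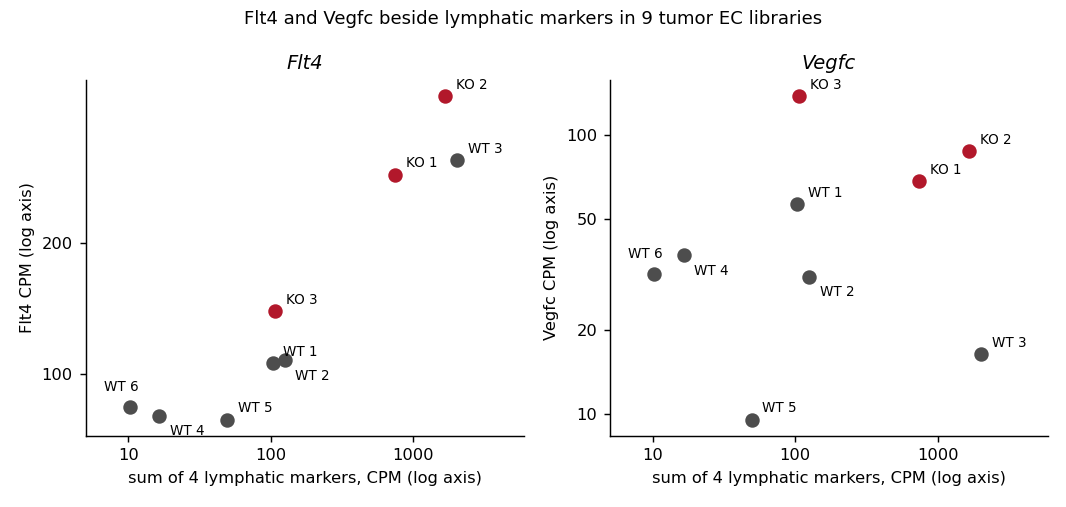
Flt4 and Vegfc (CPM, log axis) against the summed level of 4 lymphatic endothelial markers (CPM, log axis) in the 9 tumor EC libraries, KO in red and WT in grey. KO replicates 1 and 2 and WT replicate 3 have the highest lymphatic sums and the highest Flt4, and Vegfc in WT replicate 3 is at 16.4 CPM. The part of lymphatic ECs in either level was not tested.

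Neuropilins overlapped between KO and WT. Nrp1 was at 513, 277 and 836 CPM in KO and at 237 to 631 CPM in WT libraries (median 455; log2 fold change 0.27 ± 0.36), and the sign turned without KO replicate 3. Nrp2 was at 140, 109 and 149 CPM in KO and at 63.7 to 295 CPM in WT libraries (median 145; log2 fold change -0.20 ± 0.41), and the sign turned without WT replicate 5. Neither passed the test (edgeR adjusted p = 1.00 after rounding for each).

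Among the ligands Vegfc, which activates VEGFR3, had the lowest p of the 9 members. Its level was 68.7, 87.8 and 139 CPM in KO libraries and 9.55 to 56.8 CPM in WT libraries (median 31.5). Every KO library was above every WT library, as for 1.06% of tested genes. The log2 fold change was 1.69 ± 0.46, which is 3.23-fold higher, and it did not pass the test (edgeR adjusted p = 0.726), with a rank by p of 40 among 13073 genes. Over the alternatives its log2 fold change stayed between 1.36 and 1.96 and its adjusted p between 0.118 and 0.999. All 4 lymphatic markers were higher in KO (median 1.42 on the log2 scale, 0 called), and WT replicate 3, with the highest lymphatic sum, had Vegfc at 16.4 CPM. Markers of T and NK cells were also higher in every KO library, summing to 25.7 to 74.9 CPM in KO and 0.141 to 9.97 CPM in WT libraries, with 2 to 4 of the 7 listed markers detected per KO library and 1 to 5 per WT library. Only Cd2 passed the filter on low counts, at 26.4 ± 9.64 CPM in KO and 0.394 ± 0.524 CPM in WT libraries, and it was not called (edgeR adjusted p = 0.197). Klrb1c and Gzma were at 0 in every KO library, and none of the listed markers was at 0 in every WT library. By the study's methods the sort was gated on CD45- cells. Mural cell markers summed to 43.6 to 95.4 CPM in KO and 92.3 to 439 CPM in WT libraries, with 8 of 8 lower in KO and 0 called. Fibroblast markers summed to 45.8 to 328 CPM in KO and 69.6 to 6184 CPM in WT libraries, with 6 of 7 tested lower and 0 called, and both neutrophil markers tested were lower. KO replicate 1 had the highest sums of macrophage markers (822 CPM) and of tumor epithelial markers (217 CPM). The part of each of these cell types, lymphatic ECs included, in the Vegfc difference was not tested.

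Pgf, which encodes the VEGFR1 ligand PlGF, was at 870, 205 and 588 CPM in KO and at 282 to 491 CPM in WT libraries (median 379). KO replicate 2 lay below all WT libraries and the other KO libraries lay above them. The log2 fold change of Pgf was 0.54 ± 0.35, and it was 0.06 without KO replicate 1 and 0.93 without KO replicate 2. Vegfa was at 27.7, 2.88 and 3.41 CPM in KO and at 2.83 to 36.8 CPM in WT libraries (median 14.4; log2 fold change -0.53 ± 0.92), and the value was -2.37 without KO replicate 1 and -0.08 without KO replicate 2. Vegfb, a VEGFR1 ligand, was at 7.82, 54.7 and 21.4 CPM in KO and at 6.21 to 94.1 CPM in WT libraries (median 38.6; log2 fold change -0.47 ± 0.75). Vegfa and Vegfb were the least even members, with a highest-to-lowest ratio of 12.997 and 15.1 among WT libraries against 1.43 for Flt1, and Vegfb was at -1.40 without KO replicate 2 and at 0.00 without WT replicate 4. All 3 had an edgeR adjusted p of 1.00.

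In all, 0 of 9 members passed the thresholds (adjusted p below 0.05 and absolute log2 fold change above 1) in tumor ECs, in the main test and in each alternative. Over all tested genes 0.00765% were called decreased, which is Apln alone, and 0% increased. DESeq2 also called 0 members, beside 0.382% of all tested genes decreased and 0.0612% increased. At an unadjusted p below 0.05, Kdr, Flt4 and Vegfc were higher in KO, 3 of 9 members against 1.87% of all tested genes, and 0 members were lower against 2.94%. The median log2 fold change of the members was 0.54, beside -0.03 over all tested genes. Scaled to 13 endothelial markers other than the sorting markers, the median of all genes moved to -0.23 and the members' log2 fold changes to 0.40 for Kdr, 0.29 for Flt1, 0.96 for Flt4 and 1.497 for Vegfc. On that scale 1 member, Vegfc, had an unadjusted p below 0.05 and was higher, beside 0.941% of all tested genes. On the TMM scale 12 of the 15 endothelial markers were higher in KO libraries, with a median of 0.24, and 0 were called.

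**Figure D4:**
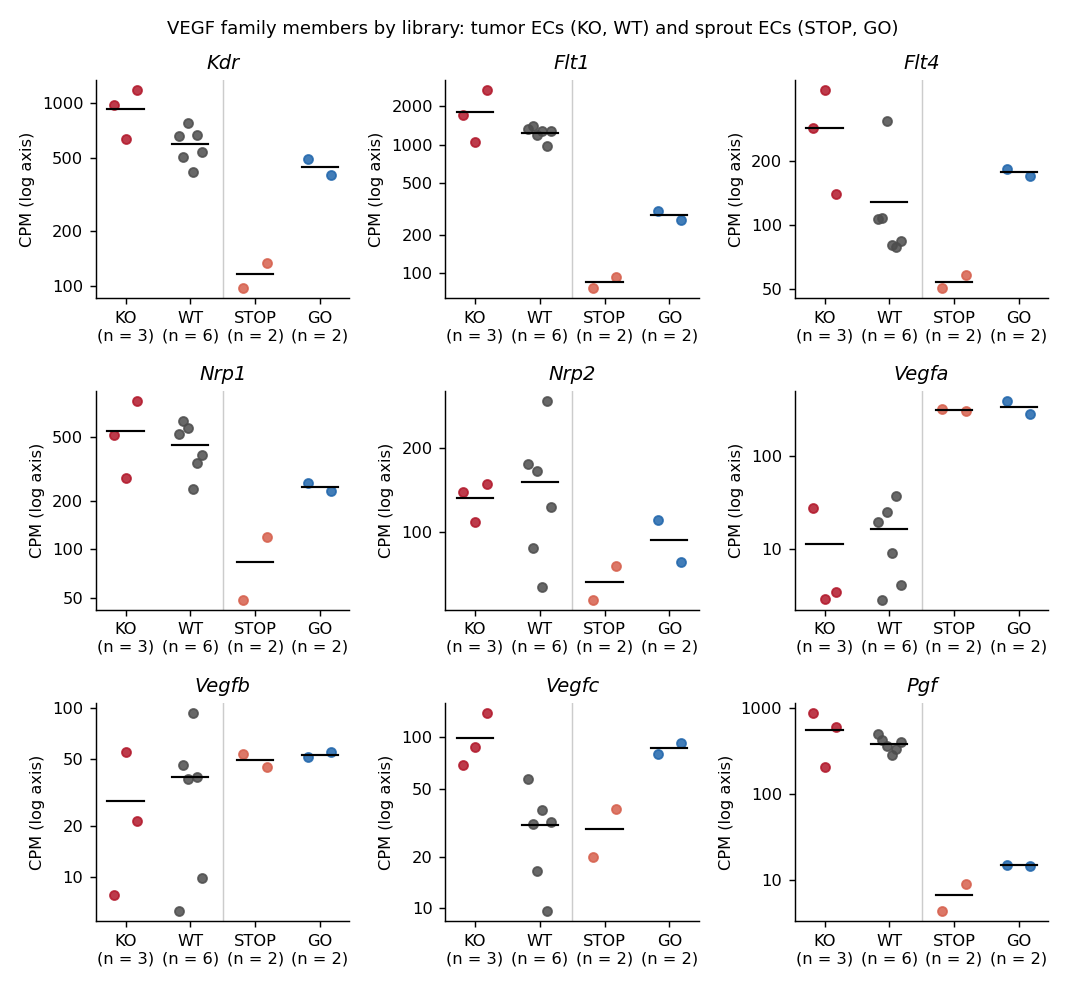
CPM (log axis) of each member in every library, with bars at the group means (KO n = 3, WT n = 6, STOP n = 2, GO n = 2). In tumor ECs only Vegfc separates KO from WT, whereas in sprout ECs all 3 receptors, both neuropilins, Vegfc and Pgf are lower in both STOP libraries than in both GO libraries.

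In sprout ECs the 3 receptors were lower in the STOP libraries. Kdr was at 97.6 and 135 CPM in STOP and at 495 and 403 CPM in GO libraries, which is 3.87-fold lower (log2 fold change -1.95 ± 0.20; edgeR adjusted p = 0.00437). Flt1 was at 76.3 and 93.4 CPM in STOP and at 303 and 262 CPM in GO libraries, which is 3.33-fold lower (log2 fold change -1.73 ± 0.16; edgeR adjusted p = 0.00281). Flt4 was at 50.1 and 57.8 CPM in STOP and at 184 and 169 CPM in GO libraries, which is 3.28-fold lower (log2 fold change -1.71 ± 0.14; edgeR adjusted p = 0.00242). Leaving out 1 sprout library leaves an arm of 1, which is assumed to vary like the other group. On that assumption each receptor was called in all 4 such fits.

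Vegfc fell with the receptors, from 79.9 and 92.3 CPM in GO to 19.98 and 37.9 CPM in STOP libraries (2.98-fold lower; log2 fold change -1.58 ± 0.31; edgeR adjusted p = 0.0490). This call lay at the threshold. It was lost with DESeq2 size factors (adjusted p = 0.0526), with RSEM counts (adjusted p = 0.0507), and on leaving out STOP replicate 1 (0.0538), GO replicate 1 (0.251) or GO replicate 2 (0.136).

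The other ligands were not called. Pgf was at 4.33 and 9.04 CPM in STOP and at 15.0 and 14.7 CPM in GO libraries (log2 fold change -1.16 ± 0.36; edgeR adjusted p = 0.0977), and it passed the thresholds with DESeq2 (adjusted p = 0.0453), with no filter on low counts (0.0245) and without STOP replicate 2 (-1.79, adjusted p = 0.0268), and was at -0.69 without STOP replicate 1 (adjusted p = 0.382). Vegfa overlapped between groups, at 316 and 308 CPM in STOP and at 388 and 281 CPM in GO libraries (log2 fold change -0.10 ± 0.18; edgeR adjusted p = 0.752). Vegfb overlapped as well, at 53.4 and 44.9 CPM in STOP and at 51.3 and 55.0 CPM in GO libraries (log2 fold change -0.11 ± 0.15; edgeR adjusted p = 0.684), and ran from -0.22 without STOP replicate 1 to -0.0037 without STOP replicate 2.

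Nrp1 was at 48.6 and 119 CPM in STOP and at 260 and 230 CPM in GO libraries (log2 fold change -1.55 ± 0.50; edgeR adjusted p = 0.172). STOP replicate 2 had 2.46 times the Nrp1 level of STOP replicate 1, and without it, with 1 STOP library left, the log2 fold change was -2.35 and passed the thresholds (adjusted p = 0.00105). Without STOP replicate 1 it was -1.02 (adjusted p = 0.0693). Fibroblast markers summed to 484 CPM in STOP replicate 1 and 3034 in STOP replicate 2, and to 3032 in GO replicate 1 and 643 in GO replicate 2, and their part in the Nrp1 level was not tested. Nrp2 was at 57.3 and 75.5 CPM in STOP and at 110 and 78.1 CPM in GO libraries (log2 fold change -0.51 ± 0.21; edgeR adjusted p = 0.183), and the value ran from -0.73 without STOP replicate 2 to -0.24 without GO replicate 1.

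Thus 4 of 9 members (Kdr, Flt1, Flt4 and Vegfc) were called decreased in sprout ECs, beside 3.03% of all tested genes, and 0 were called increased, beside 0.852%. In 7 of 9 members both STOP libraries were below both GO libraries, as for 29.6% of all tested genes. The median log2 fold change of the members was -1.55, beside 0.01 over all tested genes. RSEM counts of the members were within 0.954 and 1.05 times the HTSeq counts in every library.

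The receptors fell by sizes within the range of endothelial markers. Of 15 endothelial markers 13 were called decreased and 0 increased. Their log2 fold changes ran from -2.50 for Emcn to -0.80 for Pecam1, the sorting marker CD31, and the median was -1.97. Libraries were therefore also scaled to the 13 endothelial markers other than Pecam1 and Eng, which moved the median of all tested genes from 0.01 to 1.98. On this scale Kdr differed by -0.02 ± 0.38 (SE), Flt1 by 0.21 ± 0.37, Flt4 by 0.24 ± 0.36, Nrp1 by 0.32 ± 0.37, Vegfc by 0.32 ± 0.36 and Pgf by 0.73 ± 0.45, none past the thresholds. Nrp2 (1.43 ± 0.36), Vegfa (1.87 ± 0.40) and Vegfb (1.88 ± 0.37) were called increased on it, but so were 88.9% of all tested genes, with 0.0893% called decreased. The calls of the receptors and of Vegfc therefore depend on the scale, and their values on the endothelial scale lie within 1 SE of 0. Fewer ECs in the STOP sorts and less receptor RNA per EC cannot be told apart in these libraries. All 12 pluripotent markers were detected in each sprout library and their sum was higher in both STOP libraries. Markers of erythroid cells and megakaryocytes, 6 of 8 detected, summed to 20.7 and 9.53 CPM in STOP and 81.2 and 90.7 CPM in GO libraries, and all 6 cardiac markers, summing to 25.7 and 29.4 against 73.5 and 52.2 CPM, were detected as well. The part of these cells in the receptor difference was not tested.

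**Figure D5:**
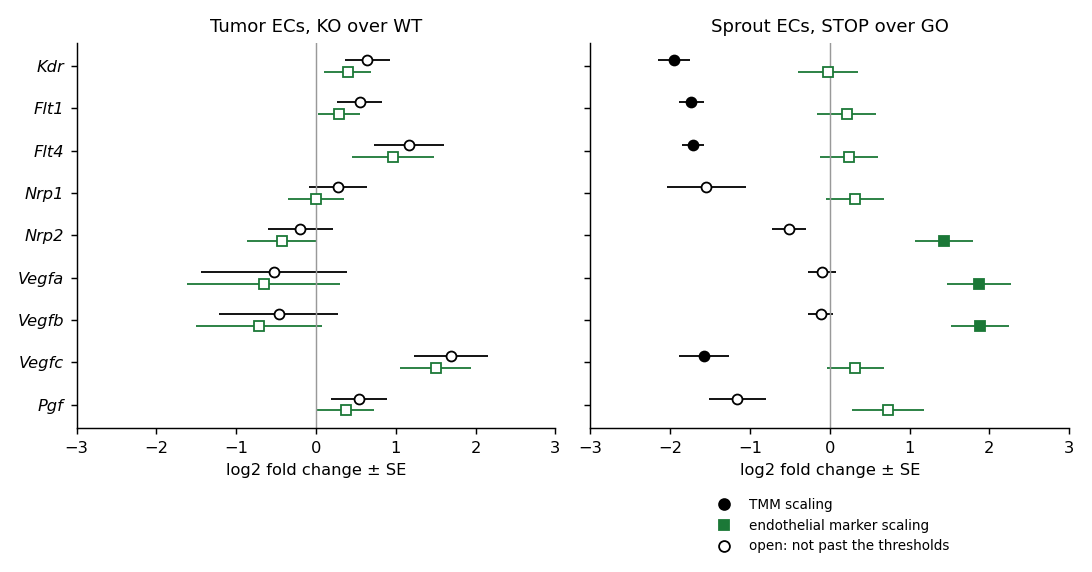
Log2 fold change ± SE of each member in tumor ECs (KO over WT) and sprout ECs (STOP over GO), with TMM scaling (circles) and scaled to 13 endothelial markers (squares); filled symbols passed the thresholds. In sprout ECs Kdr moves from -1.95 with TMM scaling to -0.02 on the endothelial scale, and Vegfa from -0.10 to 1.87.

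Promoters of the 4 genes called decreased are shown beside that of Vegfa, which was not called, since the 4 fell together between GO and STOP libraries. The 250 bases before the annotated start were read from the RefSeq promoter table (GRCm38.p6, the mm10 build), which held all 9 members. That start lies inside the gene's whole span for Kdr and Flt1, and for Vegfa and Pgf, with 2 windows each, the outermost was taken. The windows are chr5:75978456-75978705 on the minus strand for Kdr, chr5:147726012-147726261 (minus) for Flt1, chr11:49609429-49609678 (plus) for Flt4, chr8:54077282-54077531 (plus) for Vegfc and chr17:46032378-46032627 (minus) for Vegfa. Capitals mark the GC box GGGCGG, the ETS motifs AGGAAG and CCGGAA, and TATAAA, each searched on both strands; GC boxes are bound by SP1-like factors and ETS motifs by factors that ECs use widely.
Kdr: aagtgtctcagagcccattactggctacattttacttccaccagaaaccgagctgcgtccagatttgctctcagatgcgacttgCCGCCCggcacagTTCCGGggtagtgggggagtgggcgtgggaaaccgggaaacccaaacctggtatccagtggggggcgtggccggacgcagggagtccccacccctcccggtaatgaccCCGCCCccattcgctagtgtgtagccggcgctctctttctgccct
Flt1: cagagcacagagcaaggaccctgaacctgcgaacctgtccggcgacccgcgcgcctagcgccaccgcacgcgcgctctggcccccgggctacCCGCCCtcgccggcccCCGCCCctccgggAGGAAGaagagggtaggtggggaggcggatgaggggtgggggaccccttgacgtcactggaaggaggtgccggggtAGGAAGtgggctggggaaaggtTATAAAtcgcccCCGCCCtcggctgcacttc
Flt4: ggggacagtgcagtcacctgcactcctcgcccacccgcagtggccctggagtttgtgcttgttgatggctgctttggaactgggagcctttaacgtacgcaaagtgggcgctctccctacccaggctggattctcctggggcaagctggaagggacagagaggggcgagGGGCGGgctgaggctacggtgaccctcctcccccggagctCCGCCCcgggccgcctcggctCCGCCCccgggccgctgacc
Vegfc: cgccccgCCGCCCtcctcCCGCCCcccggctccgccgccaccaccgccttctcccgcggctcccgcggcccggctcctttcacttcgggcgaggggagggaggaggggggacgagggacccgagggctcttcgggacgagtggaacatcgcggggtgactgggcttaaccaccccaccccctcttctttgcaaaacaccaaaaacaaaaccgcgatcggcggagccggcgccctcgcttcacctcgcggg
Vegfa: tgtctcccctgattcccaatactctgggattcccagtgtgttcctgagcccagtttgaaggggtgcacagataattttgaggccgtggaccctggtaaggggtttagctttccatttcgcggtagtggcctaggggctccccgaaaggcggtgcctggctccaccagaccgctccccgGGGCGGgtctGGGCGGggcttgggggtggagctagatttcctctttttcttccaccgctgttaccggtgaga

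Each of these 5 windows holds at least 2 GC boxes. GGGCGG on either strand was found in the windows of all 9 members and in 32.7% of 32851 windows. AGGAAG was found 2 times in Flt1 and 1 time in Nrp1 (29.5% of all windows), and CCGGAA in Kdr alone (12.03%). Flt1 alone holds TATAAA, 31 bases before the start (12.4% of all windows). The letters ACGTG, a form of the hypoxia core present in 16.6% of windows, were in none of the 9 windows, that of Vegfa included. The form GCGTG was not searched, and it can be read in the printed windows of Kdr and, on the other strand, of Flt1. Bases outside the windows were not read, so a hypoxia core near these genes is not shown to be absent. Windows of the members were richer in G and C than most, from 59.2% in Vegfa to 76.4% in Vegfb beside a median of 52.4%. A match describes the letters of a window and does not show binding.

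The genes themselves lie apart in the genome (GRCm38.p6, RefSeq). Kdr (chr5:75932827-75979072) and Flt1 (chr5:147561604-147726438) share chromosome 5, and Nrp1 (chr8:128358591-128505476) and Vegfc (chr8:54077532-54186454) share chromosome 8. Flt4 is at chr11:49609679-49652739, Nrp2 at chr1:62703317-62818692, Vegfa at chr17:46016993-46032377, Vegfb at chr19:6982472-6987651 and Pgf at chr12:85166637-85177785. In the GENCODE annotation, no other gene's exons overlap those of 8 members, and the microRNA gene Mir1903 overlaps an exon of Nrp1.

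Whether the difference in sprout ECs itself differed from that in tumor ECs was tested in 1 fit over all 13 libraries, in which the KO over WT effect was subtracted from the STOP over GO effect. Each gene had 1 dispersion shared over the 2 library protocols, which is a limit. A difference not called in this fit is therefore not shown to be absent. For Kdr the difference of the log2 fold changes was -2.54 ± 0.46 (edgeR adjusted p = 0.106) and for Flt1 it was -2.23 ± 0.45 (adjusted p = 0.114). Flt4 differed by -2.82 ± 0.75 (adjusted p = 0.329) and Vegfc by -3.23 ± 0.80 (adjusted p = 0.226). Thus 0 of 9 members passed, beside 0% of 15762 genes lower and 0.00634% higher, the latter being Apln. At an unadjusted p below 0.05 the difference was negative for 6 members (Kdr, Flt1, Flt4, Nrp1, Vegfc and Pgf), beside 2.92% of all genes. With limma voom and sample quality weights 4 members passed as lower (Kdr, Flt1, Flt4 and Vegfc, adjusted p 0.000361 to 0.00389), beside 0.73% of all genes. Without KO replicate 2 Kdr and Flt1 passed (adjusted p = 0.0330), beside 0.0516% of all genes, and with WT replicate 3 left out as well Kdr alone passed, beside 0.00654%. Scaled to endothelial markers, the differences shrank to -0.42 ± 0.51 for Kdr, -0.08 ± 0.45 for Flt1, -0.72 ± 0.93 for Flt4 and -1.18 ± 0.74 for Vegfc, with 0 members called.

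Other genes of the pathway were followed by lists, with TMM scaling. Like the receptors, their decreases in STOP libraries stood beside that of the endothelial markers, and on the endothelial scale only 13 of 14557 genes were called decreased. With TMM scaling 3.03% of all tested genes were called decreased and 0.852% increased, which is the background for each list in sprout ECs. Of the VEGF receptor partners, 6 of 13 tested were called decreased in STOP libraries and 0 increased, with a median log2 fold change of -0.81. The 4 with the lowest p were Ptprb, a phosphatase that acts on endothelial receptors (-1.95 ± 0.16), the semaphorin receptor Plxnd1 (-2.001 ± 0.21), Sema3f, a neuropilin 2 ligand (-1.33 ± 0.21), and Cdh5, which encodes VE-cadherin and is also in the endothelial list (-1.98 ± 0.27). In tumor ECs 0 of 12 were called. Lowest in p there were Gpc1, a heparan sulfate proteoglycan, at 10.5 ± 6.63 CPM in KO and 75.9 ± 70.0 in WT libraries (edgeR adjusted p = 0.726), and Sema3a, a neuropilin 1 ligand, at 52.0 ± 38.2 and 12.5 ± 13.7 CPM (adjusted p = 0.957), followed by Itgb3, the integrin beta 3 gene, at 257 ± 26.4 and 199 ± 42.3 CPM, and Vegfd, another VEGFR3 ligand, at 3.402 ± 1.03 and 0.931 ± 1.10 CPM (adjusted p = 1.00 each).

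Proximal signaling genes carry the signal inside the cell. Of 35 tested in sprout ECs, 3 were called decreased and 0 increased, beside 3.03% and 0.852% of all tested genes, and the median log2 fold change was -0.29. They were Nos3, the endothelial nitric oxide synthase (-1.80 ± 0.16), Vav3 (-1.87 ± 0.21) and the Src-family kinase Fyn (-1.24 ± 0.17), and the focal adhesion adaptor Pxn was at -0.85 ± 0.16, inside the fold-change threshold (edgeR adjusted p = 0.0254). In tumor ECs 0 of 36 were called, and the lowest p were those of Shb, Gab1, Nck1 and Mapkapk2 (edgeR adjusted p 0.981 to 1.00).

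VEGF response genes are transcripts known to be induced by VEGF in ECs. Of 20 tested, 5 were called decreased in STOP libraries and 0 increased, and the median log2 fold change was -1.62. Lower in STOP were 19 of 20, beside 49.5% of all tested genes and 15 of 15 endothelial markers. The other gene was Apln, at 0.24. The 4 with the lowest p were the calcineurin-responsive factor Nfatc1 (-1.99 ± 0.19), the mural cell attractant Pdgfb (-1.42 ± 0.15), the potassium channel subunit Kcne3 (-2.25 ± 0.27) and the transcription factor Ets1 (-1.88 ± 0.25), also among the endothelial factors below. In tumor ECs 18 of the 20 were higher in KO, beside 48.1% of all tested genes and 12 of 15 endothelial markers, and only Apln, which is the targeted gene, was called. Rcan1, a feedback inhibitor of calcineurin, was at 253 ± 74.0 CPM in KO and 111 ± 26.5 in WT libraries, every KO library above every WT library (log2 fold change 1.19 ± 0.29; edgeR adjusted p = 0.686). The nuclear receptor Nr4a2 also separated the groups, at 43.0 ± 25.9 and 8.199 ± 5.41 CPM (log2 fold change 2.38 ± 0.62; edgeR adjusted p = 0.686), and F3, tissue factor, did not (1.86 ± 0.66; adjusted p = 0.955).

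Of endothelial transcription factors, 10 of 15 were called decreased in STOP libraries and 0 increased, beside 3.03% and 0.852% of all tested genes, with a median of -1.88. Fli1 (-2.03 ± 0.16), Erg (-2.35 ± 0.19), Tal1 (-2.52 ± 0.21) and Sox18 (-1.81 ± 0.21) had the lowest p. Fli1 and Erg belong to the ETS family, and Erg is also an endothelial marker. In tumor ECs 0 of 14 were called, 13 were higher in KO with a median of 0.26 (beside 48.1% of all tested genes higher), and the lowest p were those of Tal1, Foxc1, Sox7 and Gata2 (edgeR adjusted p = 1.00 each). Of 8 oxygen-sensing genes, which govern Vegfa in many cells, only Epas1, the endothelial HIF-2 alpha gene, was called decreased in STOP libraries (-1.02 ± 0.14; edgeR adjusted p = 0.0106). Hif1a (-0.28 ± 0.14), Egln3 (0.17 ± 0.15) and Vhl (0.06 ± 0.15) were not called, and in tumor ECs 0 of 8 were called, with Egln3, Egln2, Egln1 and Epas1 lowest in p (adjusted p = 1.00 each).

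Lastly, the genes whose levels over the 9 tumor libraries were most like those of 3 members were listed from 10288 genes with a mean of at least 50 counts. Nearest to Kdr were Rapgef4 (Pearson r = 0.95, Spearman rho = 0.93), Zyg11b (r = 0.90, rho = 0.80) and Ccdc82 (r = 0.89, rho = 0.88). Nearest to Flt1 were Nr2c2 (r = 0.93, rho = 0.75), Zfp579 (r = 0.91, rho = 0.90) and Ddah2 (r = 0.91, rho = 0.87). Nearest to Vegfa were Eif3a (r = 0.94, rho = 0.98), Chd1 (r = 0.93, rho = 0.90) and Atmin (r = 0.92, rho = 0.90). Kdr and Flt1 were less alike than these, at r = 0.65 and rho = 0.27. These points share depth and cell makeup library by library, and the best of so many genes is high by selection.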

How the data were processed

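RNA-Seq of sorted mouse ECs was used, 9 tumor and 4 sprout libraries, grouped by their labels. For tumor ECs (Smart-seq2 libraries) the deposited values are whole-number counts per gene made by the authors with featureCounts. The study's methods name STAR as the aligner and the submitters' processing notes list Trim Galore 0.5.0, Bowtie2 2.3.4.1, SAMtools 1.9 and Subread 1.6.2, with build mm10. For sprout ECs (TruSeq, poly-A selection) the authors aligned reads with STAR 2.5.0a to mm10, counted them with HTSeq 0.6.1p1 and deposited the counts, of which 54.1% to 59.1% of reads were unassigned and left out. They also deposited RSEM 1.2.25 expected counts, rounded here for 1 alternative, and TPM.

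Each set was fitted separately in edgeR 4.0.16 (R 4.3.3). The fit used filterByExpr (minimum of 10 counts), TMM, the robust quasi-likelihood test and Benjamini-Hochberg adjustment over all tested genes, and genes were called at adjusted p 0.05 and absolute log2 fold change 1. SE is the log2 fold change over the root of F. CPM per kb used RSEM effective lengths of the sprout libraries for both sets. Ratios (counts + 0.5) were tested by exact permutation with SciPy 1.17.1, whose smallest p is 0.0119. Libraries of 1 group differed beyond sampling noise (chi-square of counts), so none was merged. Alternatives were DESeq2 1.42.0, limma 3.58.1 voom, size factors, endothelial marker scaling, other filters, no fold-change threshold, the replicate number as a block, RSEM counts and each library left out. The scripts were tested on simulated counts.

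All 9 members are named. Of each pathway list the 4 genes with the lowest p per set are named, and for Kdr, Flt1 and Vegfa the 3 most alike genes by Pearson r of log2(CPM + 1). Members and lists were chosen with earlier results of these data known. Protein sequences were not used here.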

Additional observations from a re-analysis of the deposited data

Results flagged for a closer look

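Among 12 checks of the 6 WT libraries (9 member levels and 3 ratios), where chance marks about 1 in 20, 1 library stood apart from its group. Flt4 was at 309 CPM in WT replicate 3, with the other 5 at 78.7 to 108 CPM, and its lymphatic marker sum was 2026 CPM against 10.2 to 125 CPM in those 5. Vegfc CPM was higher in every KO library than in every WT library, which did not pass the test (adjusted p = 0.726), and lower in both STOP libraries than in both GO libraries. The difference of its log2 fold changes was -3.23 ± 0.80 (edgeR interaction test, adjusted p = 0.226), which did not pass the threshold. Scaled to endothelial markers the log2 fold change of Vegfc in sprout ECs was 0.32 ± 0.36, within its error of 0, and the difference was -1.18 ± 0.74. No cause was tested for either.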

How the results depend on the processing

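No member was called in tumor ECs under any of 18 alternatives, and the signs of Kdr, Flt1, Flt4, Vegfc and Pgf held there. The number of genes called in tumor ECs was 1, and it was 58 with DESeq2, 16 with no filter and 2 with limma voom, and ranged from 1 to 2 on leaving out 1 library. Uncalled signs turned on leaving out 1 library for Nrp1 (-0.18 without KO replicate 3, to 0.58), Nrp2 (-0.35 to 0.10, the latter without WT replicate 5) and Vegfb (-1.40 to 0.0042, the latter without WT replicate 4), for Nrp2 with limma voom (0.14), and for Vegfa with KO replicate 2 and WT replicate 3 both left out (0.10). The ratio of Nrp2 to Nrp1 ranged from -0.52 to 0.049 (0.044 without WT replicate 5).

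In sprout ECs 565 genes were called. The count was 854 with no filter, 905 without the fold-change threshold and 12958 with endothelial marker scaling, and ranged from 148 (without STOP replicate 1) to 887 (without GO replicate 2), with 154 without GO replicate 1. Members called ranged from 3 to 6 on leaving out 1 library. Endothelial scaling, which moved the median of all genes from 0.01 to 1.98, turned Flt1 to 0.21, Flt4 to 0.24, Nrp1 to 0.32, Nrp2 to 1.43, Vegfa to 1.87, Vegfb to 1.88, Vegfc to 0.32 and Pgf to 0.73; the 3 members it calls are not those of the main test. Vegfa ranged from -0.31 to 0.15, the latter without GO replicate 1. For the difference of effects, 0 members were called, but 4 with limma voom, 1 with KO replicate 2 and WT replicate 3 both left out, and 0 to 2 on leaving out 1 library. The cause of these shifts was not tested.

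Replicate numbers are shared but do not pair the libraries: deviations of same-numbered libraries correlated at -0.43 across genes in sprout ECs and at -0.14 to 0.06 in tumor ECs. With the replicate block 2 genes were called in tumor ECs (Nrp1 at -0.21), and 44 genes and 2 members (Flt1, Flt4) in sprout ECs, with Kdr at an edgeR adjusted p of 0.0544 and Vegfc at 0.0548. A crossed block, added after seeing the data, called 1235 genes and 5 members; with 2 libraries per group its correlation is the mirror of the former (0.43), so it is no separate evidence that the numbers are crossed. With 2 libraries per sprout group an exact permutation test cannot go below p = 0.333, so sprout calls rest on the spread shared across genes.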
